A study of Homo sapiens with 3 samples.

Results

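The genes described here are 43 genes of the ATF4 pathway and the unfolded protein response, chosen by name and matched to the array by the transcript accession of each probe. Of these, 38 had a probe that was measured on all 3 arrays, out of 12031 genes in all with such a probe. The cells were HCT116, an established human colon cancer cell line, and no other line was used. They received control siRNA, siRNA #7 or siRNA #8 for 48 h, and both targeting siRNAs were directed against *HOXA5* short RNA, a non-coding transcript of the *HOXA* gene cluster. For each condition 400 ng of total RNA was labeled with the dye Cy3 and hybridized to 1 array, so there is no replicate of any condition, no p-value between conditions is given for a single gene, and the number of arrays limits the precision.

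Both siRNAs were designed on the junction between the first and the last exon of *HOXA5* short RNA, and their sequences, taken from the study's list of oligonucleotides, are shown because they target nearly the same site. Each is 21 bases long, and the 17 bases in capitals are common to both. The source does not state the strand, and the genome position of the junction was not derived here.
siRNA #7: gagaAACUGAAAGACAACAUA
siRNA #8: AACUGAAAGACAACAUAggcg

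The unfolded protein response is set off when unfolded proteins accumulate in the endoplasmic reticulum (ER). The sensors IRE1 (*ERN1*), PERK (*EIF2AK3*) and ATF6 lie in the ER membrane, and XBP1 and cleaved ATF6 switch on ER chaperones and factors of ER-associated degradation. PERK phosphorylates the translation factor eIF2, which favours translation of ATF4. Other eIF2 kinases, such as the amino acid sensor GCN2, lead to ATF4 without ER stress, and ATF4 with its partners induces enzymes of serine, glycine and asparagine synthesis, amino acid transporters and feedback regulators. The amino acid response and the unfolded protein response therefore share ATF4, whereas the ER chaperones belong to the latter, and the comparison of both groups of genes asks which of them differed after each siRNA. ATF4 is largely controlled at translation, and these arrays measured RNA only.

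All 3 arrays lay on 1 slide and were scanned together. The 75th percentile of intensity was 52.8 for control siRNA, 42.1 for siRNA #7 and 42.8 for siRNA #8, and a level below is the log2 intensity minus the log2 of this percentile. The only replicate error on an array is that between spots of 1 probe. For the ratios of the 38 measured genes this spot-to-spot SD had a median of 0.15 on the log2 scale with siRNA #7 and 0.16 with siRNA #8, and it leaves out any variation between cultures. The array probe of *HOXA5*, the gene that overlaps the target, had log2 ratios to control siRNA of -0.36 (SD 0.25) with siRNA #7 and -0.23 (SD 0.26) with siRNA #8, and it does not measure the short RNA by itself. This probe lies near one edge of the array, within the first 25 of 164 columns. The epithelial markers *EPCAM*, *KRT8*, *KRT18*, *KRT19*, *CDH1*, *CDX1* and *CDX2* were measured on all arrays, the probe of *VIL1* did not exceed background on any of them, and none of the 4 blood cell and 3 endothelial markers passed the filter, while *COL1A1* did from 4 fibroblast markers and *APOA1* from 2 hepatocyte markers. As RNA was taken from whole cultures, fewer cells that express a gene and less RNA of it per cell cannot be told apart.

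The amino acid response genes comprise 5 transcription factors, feedback and growth genes, enzymes and transporters. With siRNA #7 they and the ER chaperones lay on opposite sides of control siRNA. Of the 21 measured amino acid response genes, 19 were higher than with control siRNA, with a median log2 ratio of 0.39, whereas all 13 ER chaperones and folding factors were lower, with a median of -0.31. The difference between the medians was 0.70, and 19 of the 21 amino acid response genes had a ratio above that of every chaperone, *PSAT1* and *SLC7A11* being the exceptions. Over all genes the median was 0.016, with 51.7% of genes higher. With spike-in scaling, 12 of the 21 amino acid response genes and 2257 of all 12031 genes were higher with siRNA #7. After normexp background correction, 15 of the 21 and 4852 of all 12031 genes were higher. With siRNA #8, 12 of 13 chaperones were again lower, with a median of -0.33, and 49.2% of all genes were lower. The probes of *HSP90B1* disagree, and with the mean of its probes 11 of 13 were lower. The amino acid response genes with siRNA #8 were 9 higher and 12 lower, with a median of -0.12, but 3 higher and 18 lower with spike-in scaling and 4 higher and 17 lower after normexp background correction. These 2 ways of processing lowered all genes too. Of 12031 genes, 8801 were lower with siRNA #8 under spike-in scaling and 7076 after normexp. Here the difference between the medians was 0.21, and the median over all genes was 0.0072. Both sets of ratios use the same control array, so a low or high spot on that array enters both, and with 1 array per condition none of these medians can be tested between conditions.

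**Figure D1:**
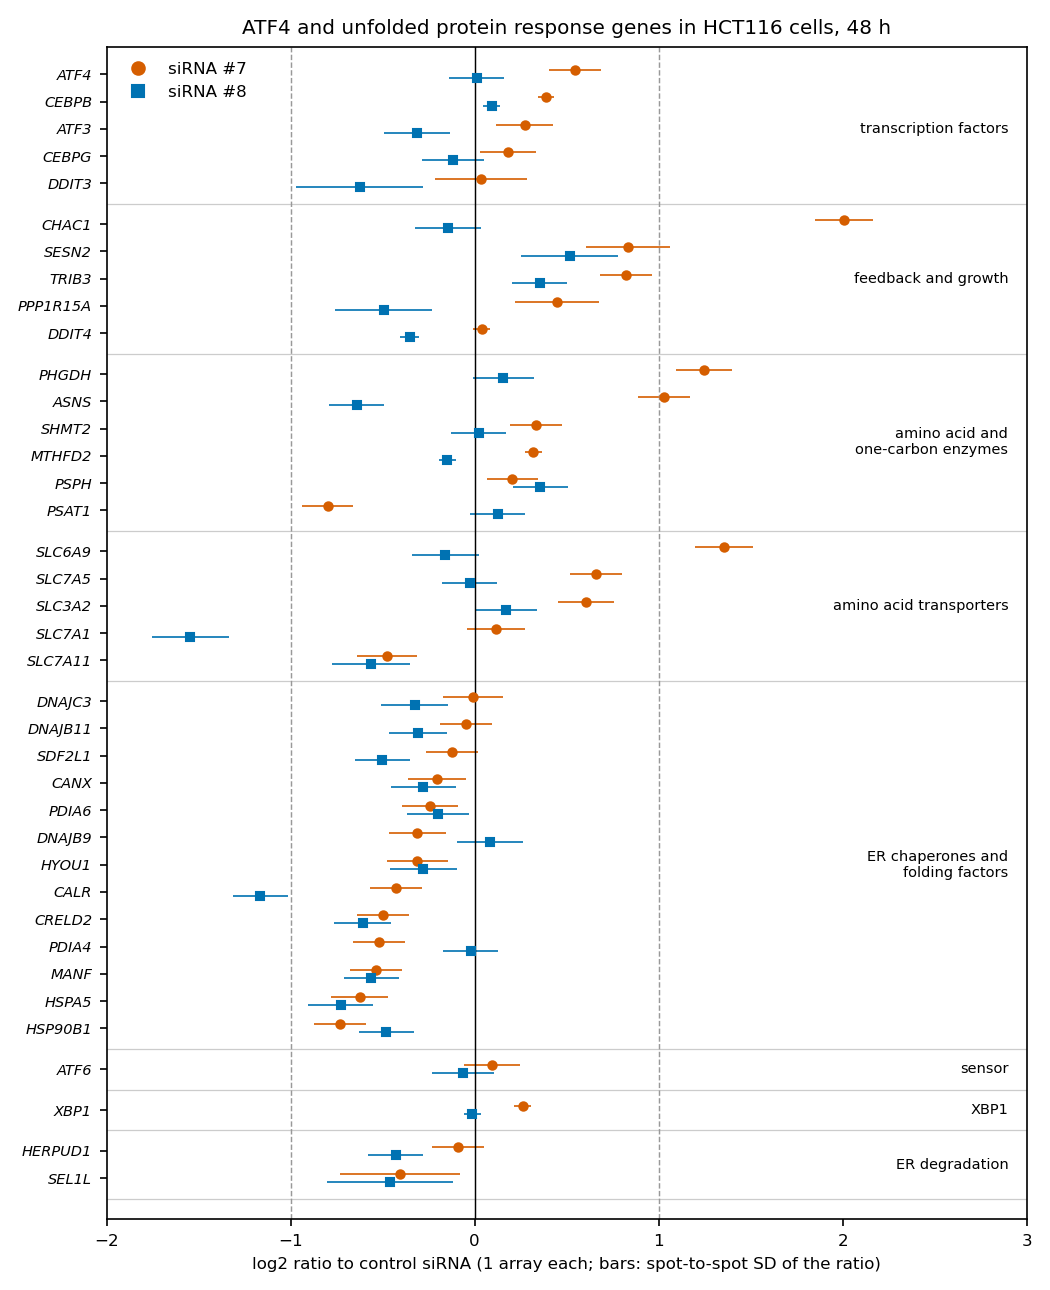
Log2 ratio to control siRNA (x axis) of each measured gene (y axis, grouped by role) with siRNA #7 (circles) and siRNA #8 (squares), with bars for the SD between spots and dashed lines at 2-fold. With siRNA #7 the ER chaperones lie between -0.73 and -0.0086 and 19 of the 21 amino acid response genes lie above 0, whereas with siRNA #8 the amino acid response genes spread from -1.54 to 0.52.

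**Figure D2:**
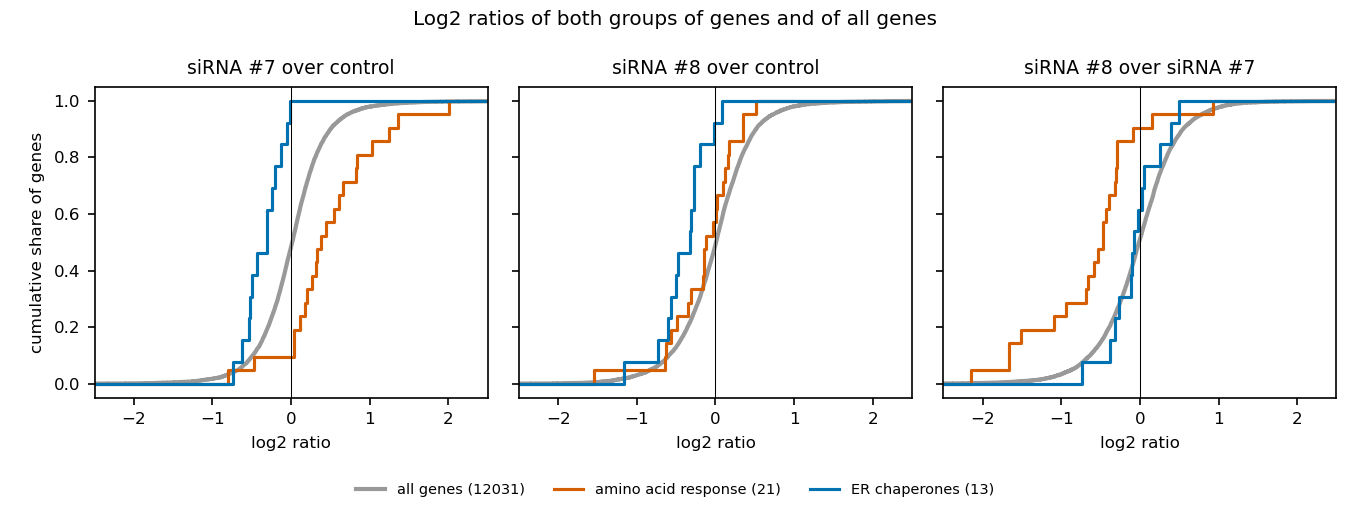
Cumulative share of genes (y axis) against log2 ratio (x axis) for the 21 amino acid response genes, the 13 ER chaperones and all 12031 genes, for each siRNA over control and for siRNA #8 over siRNA #7. The 2 groups separate with siRNA #7, with medians of 0.39 and -0.31, and lie closer with siRNA #8, at -0.12 and -0.33.

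Past 2-fold, 4 of the 38 measured genes were higher with siRNA #7 (2.05% of all genes were) and none was lower (1.72% of all genes). The 4 were *CHAC1*, *SLC6A9*, *PHGDH* and *ASNS*, and the nearest ones inside the threshold were *SESN2* at 1.78-fold and *TRIB3* at 1.77-fold. With siRNA #8 no gene was 2-fold higher (1.95% of all genes) and 2 were lower (3.03% of all genes), *SLC7A1* and *CALR*, the nearest ones inside being *HSPA5* at 1.66-fold and *ASNS* at 1.56-fold lower. At 1.5-fold, 8 genes were higher (7.60% of all genes) and 3 lower (6.92%) with siRNA #7, and none was higher (7.79%) and 6 were lower (10.3%) with siRNA #8. The 8 higher genes were all amino acid response genes. When the arrays were scaled on spike-in RNA instead, which moved the median of all genes by -0.33 with siRNA #7, the 2-fold counts with this siRNA became 2 higher and 2 lower. Of all 12031 genes, 118 were then 2-fold higher and 582 lower. The 1.5-fold counts became 4 higher and 11 lower with siRNA #7, against 323 and 2709 of all genes. With siRNA #8 none was higher and 14 were lower, against 422 and 2481 of all genes.

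*ATF4*, the factor at the centre of the response, had a level of 8.91 in cells given control siRNA, and of 9.45 and 8.92 in those given siRNA #7 and siRNA #8. It was thus 1.46-fold higher with siRNA #7, a log2 ratio of 0.54 (SD 0.14), while its ratio with siRNA #8 was 0.01 (SD 0.15). The size depended on the processing, since the ratio with siRNA #7 was 0.28 with quantile normalization, 0.24 after normexp and 0.22 with spike-in scaling, and the ratio with siRNA #8 was -0.16, -0.33 and -0.23 in the same order. *DDIT3*, which encodes CHOP, a factor induced by ATF4 and linked to cell death under ER stress, had levels of 0.11, 0.14 and -0.52 in the same order. Its log2 ratio was 0.04 (SD 0.25) with siRNA #7 and -0.63 (SD 0.34) with siRNA #8, where it was 1.54-fold lower. On the siRNA #7 array *DDIT3* was thus nearer to control siRNA than *ATF4*, but on a dim probe with a wide SD. After removal of the median deviation of neighbouring spots these siRNA #7 ratios were 0.21 for *DDIT3* and 0.46 for *ATF4*. Normexp brought the siRNA #8 ratio of *DDIT3* to -0.14. *ATF3*, a stress-induced factor downstream of ATF4, had levels of 2.95, 3.22 and 2.64, with log2 ratios of 0.27 (SD 0.16) and -0.31 (SD 0.18). Its 2 dimmer passing probes had SDs of 0.40 and 0.41 and disagreed with each other, one at 0.43 and -0.23 and the other at -0.17 and 0.31, so the direction for *ATF3* rests on its brightest probe. The partners of ATF4 on DNA, *CEBPB* and *CEBPG*, had log2 ratios of 0.18 to 0.39 with siRNA #7 and of -0.12 to 0.09 with siRNA #8. *CEBPB*, printed in 10 spots, was the higher of the pair with both siRNAs. All 5 factors were above 0 with siRNA #7, whereas 2 were above 0 with siRNA #8.

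Among the feedback and growth genes, *CHAC1*, an enzyme that degrades glutathione and a sensitive target of ATF4, had the highest ratio of the 38 measured genes. Its level was 1.53 on the control array, 3.54 after siRNA #7 and 1.38 after siRNA #8. The siRNA #7 array stood apart from the others by a log2 ratio of 2.01 (SD 0.16), or 4.02-fold, and the siRNA #8 array was level with control at -0.14 (SD 0.18). A second, dimmer probe of *CHAC1* did not pass the filter. It exceeded background after siRNA #7 only and was at least 5.24-fold higher there than with control siRNA. Because it was detected only on the array where it was high, it adds no separate support for the direction. *TRIB3*, a pseudokinase that restrains ATF4 and CHOP, had levels of 5.31, 6.13 and 5.67, with log2 ratios of 0.82 (SD 0.14) and 0.35 (SD 0.15). After removal of the median deviation of neighbouring spots these ratios became 0.50 and -0.02. *SESN2*, which restrains the growth kinase mTORC1 when amino acids are short, had levels of 0.30, 1.13 and 0.82, and its log2 ratios of 0.83 (SD 0.23) and 0.52 (SD 0.26) were positive with both siRNAs. *DDIT4*, another inhibitor of mTORC1, and *PPP1R15A*, which directs dephosphorylation of eIF2, lay from 0.04 to 0.45 with siRNA #7 and from -0.50 to -0.35 with siRNA #8. The same removal of neighbouring spots brought *PPP1R15A* with siRNA #8 from -0.50 to 0.010. All 5 measured genes of this group were above 0 with siRNA #7, with a median of 0.82, and 2 were above 0 with siRNA #8, with a median of -0.14.

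The enzymes make asparagine, serine and one-carbon units. *ASNS*, asparagine synthetase, had a level of 6.46 on the control array, 7.49 after siRNA #7 and 5.82 after siRNA #8, the highest and the lowest value being those of the 2 siRNAs. The log2 ratios were 1.03 (SD 0.14), or 2.04-fold higher, and -0.64 (SD 0.15), or 1.56-fold lower. *PHGDH*, the first enzyme of serine synthesis, had levels of 4.19, 5.44 and 4.35, and was 2.37-fold higher with siRNA #7, a log2 ratio of 1.25 (SD 0.15), against 0.16 (SD 0.17) with siRNA #8. *PSAT1*, the next enzyme of serine synthesis, ran the other way with siRNA #7. Its levels were 5.44, 4.64 and 5.57, a log2 ratio of -0.80 (SD 0.14), or 1.74-fold lower, with siRNA #7 and of 0.13 (SD 0.15) with siRNA #8. The dimmer probe of *PSAT1* gave -0.79 (SD 0.33) and -0.15 (SD 0.26), the same direction with siRNA #7 and the opposite one with siRNA #8. *PSPH*, which completes serine synthesis, and the mitochondrial one-carbon enzymes *SHMT2* and *MTHFD2* lay from 0.21 to 0.33 with siRNA #7 and from -0.15 to 0.36 with siRNA #8. Of 6 measured enzymes, 5 were above 0 with siRNA #7, with a median of 0.33, and 4 with siRNA #8, with a median of 0.074.

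Of the amino acid transporters, *SLC6A9*, a glycine transporter, had levels of 1.33, 2.68 and 1.17 and was 2.56-fold higher with siRNA #7. Its log2 ratio was 1.35 (SD 0.16) with siRNA #7 and -0.16 (SD 0.18) with siRNA #8. *SLC7A5* and *SLC3A2* encode the 2 chains of the LAT1 carrier of large neutral amino acids. *SLC7A5* had levels of 5.08, 5.74 and 5.05, with log2 ratios of 0.66 (SD 0.14) and -0.03 (SD 0.15). *SLC3A2* had levels of 3.46, 4.07 and 3.63, with log2 ratios of 0.61 (SD 0.15) and 0.17 (SD 0.17). Both chains were thus about as much higher with siRNA #7, at 1.58-fold and 1.52-fold, and within about 1 SD of control siRNA with siRNA #8. *SLC7A1*, a carrier of arginine and lysine, had levels of 2.42, 2.53 and 0.87, so that the siRNA #8 array alone was low. It was 2.92-fold lower with siRNA #8, a log2 ratio of -1.54 (SD 0.21), against 0.12 (SD 0.16) with siRNA #7. *SLC7A11*, the cystine carrier that supplies glutathione synthesis and is also a target of NRF2, was the only transporter below 0 with both siRNAs, at -0.48 and -0.56.

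**Figure D3:**
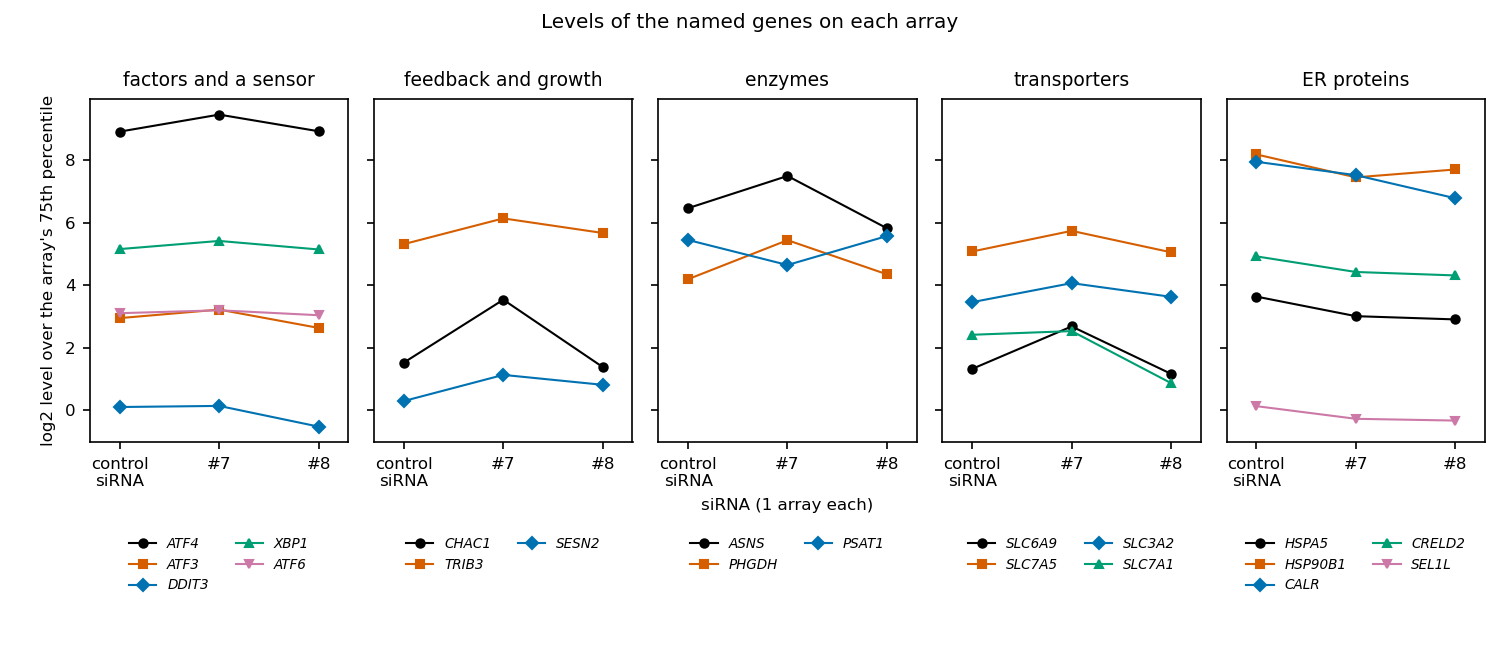
Level (y axis, log2 intensity over the 75th percentile of the array) of the genes named with their 3 levels, on the arrays of control siRNA, siRNA #7 and siRNA #8 (x axis, 1 array each). Levels of different genes come from different probes and are not comparable, and a reader should see the peak at siRNA #7 for *CHAC1*, *ASNS*, *PHGDH* and *SLC6A9* and the step down from control siRNA for *HSPA5*, *CALR* and *CRELD2* with both siRNAs.

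The ER chaperones and folding factors had ratios from -0.73 to -0.0086 with siRNA #7 and from -1.16 to 0.08 with siRNA #8. *HSPA5* encodes BiP, the main chaperone of the ER lumen and a standard readout of ER stress. Its level was 3.64 on the control array, 3.01 after siRNA #7 and 2.91 after siRNA #8, log2 ratios of -0.63 (SD 0.15) and -0.73 (SD 0.18). It was the only one of the 38 genes that was over 1.5-fold lower with both, and 201 of all 12031 genes were. *CALR*, calreticulin, which folds glycoproteins, had levels of 7.94, 7.52 and 6.78, and its log2 ratios were -0.43 (SD 0.14) and -1.16 (SD 0.15), or 2.24-fold lower with siRNA #8. Removal of the median deviation of neighbouring spots brought the latter to -0.94, below 2-fold. *CRELD2*, a secreted protein induced by ER stress, had levels of 4.92, 4.42 and 4.31, with log2 ratios of -0.50 (SD 0.14) and -0.61 (SD 0.16).

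*HSP90B1*, which encodes GRP94, the HSP90 of the ER, is uncertain. On its brightest probe the levels were 8.18, 7.45 and 7.70, with log2 ratios of -0.73 (SD 0.14) and -0.48 (SD 0.15). Its dimmer probe had levels of 0.65, 1.04 and 1.45 and ratios of the opposite sign, 0.38 (SD 0.25) and 0.80 (SD 0.24). The brightest probe lies near one edge (within 25 of 164 columns), and its ratio with siRNA #7 became -0.17 after the same removal. The probes of *CALR*, *ATF6* and *DDIT3* lie in these columns too, 4 of 38 genes (10.5%), against 14.9% of all genes. Without these columns, 148 of 10237 genes were 2-fold higher and 159 lower with siRNA #7, against 247 and 207 of 12031 with them. With siRNA #8 they were 152 and 291, against 235 and 364. The part of this position in the ratios was not tested beyond that removal and leaving out these columns. The other 9 chaperones, the disulfide isomerases *PDIA4* and *PDIA6*, the lectin *CANX*, the J proteins *DNAJB9*, *DNAJB11* and *DNAJC3*, *SDF2L1*, *HYOU1* and the secreted factor *MANF*, lay from -0.54 to -0.0086 with siRNA #7 and from -0.56 to 0.08 with siRNA #8. The dimmer probe of *CANX* had the same direction as the brightest one with both siRNAs. Only *DNAJB9* was above 0 with siRNA #8, by less than its SD of 0.18.

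The sensors themselves were barely measured. *ATF6* had levels of 3.11, 3.20 and 3.04 and log2 ratios of 0.09 (SD 0.15) and -0.06 (SD 0.17), both within the spot-to-spot SD. The probe of *EIF2AK3* exceeded background in control cells only (at least 1.05-fold lower with siRNA #7), and that of *ERN1* on no array. *XBP1*, the factor activated by IRE1 through splicing, which was not measured here, had levels of 5.15, 5.41 and 5.14 on 10 spots per array. The log2 ratios were 0.26 (SD 0.04) with siRNA #7 and -0.01 (SD 0.05) with siRNA #8, so *XBP1* lay with *ATF4* and not with the chaperones on the siRNA #7 array. Among the degradation genes, *SEL1L*, a part of the HRD1 ubiquitin ligase complex, had levels of 0.13, -0.27 and -0.33, with log2 ratios of -0.40 (SD 0.33) and -0.46 (SD 0.34), and its dimmer passing probe gave 0.05 (SD 0.40) and 0.12 (SD 0.41), so no direction can be given. *HERPUD1*, which assists the same complex, was at -0.09 with siRNA #7 and -0.43 with siRNA #8. The remaining genes without a passing probe were *VLDLR*, a lipoprotein receptor, *ALDH1L2*, a mitochondrial one-carbon enzyme, and *EDEM1*, a degradation lectin, and none of their probes was well above background on any array.

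The direct comparison of the 2 siRNAs leaves out the control array. With siRNA #8, 19 of 21 amino acid response genes were lower than with siRNA #7, with a median log2 ratio of -0.47, against a median of -0.013 over all genes. The chaperones were split, 5 higher and 8 lower, with a median of -0.075. Past 2-fold, 5 of the 38 genes were lower with siRNA #8 than with siRNA #7 (3.37% of all genes) and none was higher (2.27%). These were *CHAC1* at -2.15 (SD 0.16), *ASNS* at -1.67 (SD 0.15), *SLC7A1* at -1.66 (SD 0.20), *SLC6A9* at -1.51 (SD 0.17) and *PHGDH* at -1.09 (SD 0.15). The exceptions among the amino acid response genes were *PSAT1* at 0.93 (SD 0.15) and *PSPH* at 0.15 (SD 0.15). The SDs cover spots only, and the variation between cultures was not measured.

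Other genes of the same pathways were listed apart from these 43. A list of 27 further genes held targets of ATF4 and, upstream of it, the eIF2 kinases *EIF2AK1*, *EIF2AK2* and *EIF2AK4* and the eIF2 gene *EIF2S1*. Of these 27 genes, 21 were measured, the upstream ones among them. Of the 21, 15 were above 0 with siRNA #7 and 9 with siRNA #8, with medians of 0.12 and -0.090. *EIF2AK1*, *EIF2AK2* and *EIF2S1* were among those above 0 with siRNA #7, and *EIF2AK4* was below 0. *JDP2*, a repressor that binds ATF3 sites, was the only one of them 2-fold higher, with levels of 2.78, 3.81 and 2.44 on 10 spots per array. *SLC38A2*, a transporter of small neutral amino acids, was at -1.63 with siRNA #7 on its brightest probe but at -0.05 on a dimmer probe. *MTHFD1L*, a mitochondrial one-carbon enzyme, had levels of 2.63, 2.64 and 1.57, and its 4 probes all lay between -1.09 and -0.96 with siRNA #8. Of 31 further genes of ER stress and ER protein handling, 30 were measured, with medians of -0.0097 with siRNA #7 and -0.24 with siRNA #8, and 13 and 8 of them were above 0. *SEC24D*, a coat protein of vesicles that leave the ER, was 2-fold lower with both siRNAs, with levels of 1.40, 0.25 and 0.20. *DERL3*, a channel protein of ER-associated degradation, was low with siRNA #8, with a log2 ratio of -1.64 (SD 0.21) against 0.09 with siRNA #7, on a probe near the same edge of the array as that of *HSP90B1*. *TXNDC5*, a disulfide isomerase, was at -1.45 with siRNA #7 on its brightest probe and at 0.33 on another, so its probes disagree. With siRNA #7 the median of this wider ER list was near that of all genes, unlike that of the 13 chaperones.

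The promoters of the 43 genes were read for the binding motifs of these pathways, and a link between the motifs and the ratios was not tested. The sequences are those of RefSeq on GRCh38.p14, from 250 bases before to 50 bases after the start of a transcript, and 39 of the 43 genes matched (*ALDH1L2*, *SLC7A11*, *SHMT2* and *PSPH* did not). Both strands were searched. The core of the amino acid response element, TGATGNAAN, bound by ATF4 with a C/EBP partner, was found in 6 of 19 amino acid response genes, *ATF3*, *CEBPG*, *CHAC1*, *ASNS*, *SLC3A2* and *SLC7A1*, in *HERPUD1* and in none of the 13 chaperones, and 4.45% of all 27305 genes with a promoter held it. The ER stress response element, CCAAT and CCACG separated by 9 bases and bound by ATF6 and XBP1 with NF-Y, was found in 6 of 13 chaperones, *HSPA5*, *HSP90B1*, *PDIA6*, *CALR*, *CANX* and *CRELD2*, in *XBP1* and in none of the amino acid response genes, and 0.0916% of all genes held it. The UPR element TGACGTGG was found in *HYOU1* only, and in 0.927% of all genes. No gene held more than 1 of the 3 motifs. Examples of the first motif, in capitals, follow for the genes with the widest differences between the siRNAs. Each is written 5′ to 3′ on the strand that reads like the transcript.
*CHAC1* (GRCh38.p14, chr15:40953251-40953279, plus strand, motif on the opposite strand from 210 bases before the start): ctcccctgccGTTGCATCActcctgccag
*ASNS* (GRCh38.p14, chr7:97872458-97872486, minus strand, 68 bases before the start): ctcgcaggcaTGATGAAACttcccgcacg
*SLC7A1* (GRCh38.p14, chr13:29595663-29595691, minus strand, at transcript base 8): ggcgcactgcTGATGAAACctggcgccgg

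The second motif is shown for *HSPA5*, *CALR*, *CRELD2* and *XBP1*, with the capitals covering both ends and the 9 bases between them. *HSP90B1*, whose probes disagree, also holds it and is not shown.
*HSPA5* (GRCh38.p14, chr9:125241381-125241419, minus strand, 66 bases before the start): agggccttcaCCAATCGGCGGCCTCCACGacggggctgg
*CALR* (GRCh38.p14, chr19:12938374-12938412, plus strand, motif on the opposite strand from 225 bases before the start): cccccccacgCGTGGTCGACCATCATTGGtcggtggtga
*CRELD2* (GRCh38.p14, chr22:49918544-49918582, plus strand, motif on the opposite strand from 80 bases before the start): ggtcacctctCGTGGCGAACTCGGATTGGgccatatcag
*XBP1* (GRCh38.p14, chr22:28800593-28800631, minus strand, 52 bases before the start): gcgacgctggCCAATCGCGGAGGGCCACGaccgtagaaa

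Of the 7 genes with the first motif 6 were amino acid response genes, and of the 7 with the second 6 were chaperones, so the ratios of genes with and without a motif are not a separate comparison. A match of letters is a description of the sequence and does not show that a factor is bound there.

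The medians of both groups were recomputed under 11 other ways of processing the arrays. The amino acid response median with siRNA #7 ranged from 0.061 to 0.42, and the chaperone medians ranged from -0.64 to -0.28 with siRNA #7 and from -0.57 to -0.27 with siRNA #8. The 0.061 came from scaling on the 10 E1A spike-in probes, under which the median of all genes moved by -0.33 with siRNA #7 and -0.24 with siRNA #8, and 12 of 21 amino acid response genes were above 0, against 19 of 21 as first scaled. Of all 12031 genes, 2257 were above 0 with siRNA #7 under this scaling. Normexp background correction brought the median of all genes from 0.016 to -0.059 with siRNA #7 and from 0.0072 to -0.058 with siRNA #8. The amino acid response median with siRNA #8 ranged from -0.36 to -0.063. Relative to the median of all genes under the same processing, the amino acid response median with siRNA #7 ranged from 0.19 to 0.40 and that of the chaperones from -0.46 to -0.28. The difference between the groups with siRNA #7 ranged from 0.56 to 0.73, and with siRNA #8 from 0.18 to 0.30, with the enzymes and transporters alone as a twelfth alternative. Limma was also fitted with both siRNA arrays as 1 group against the control array. Its log2 ratio was 0.19 for *ASNS*, whose ratios were 1.03 with siRNA #7 and -0.64 with siRNA #8. For *HSPA5* it was -0.68, between -0.63 and -0.73. With 1 control array, and with a difference between the siRNAs counted as error, this fit cannot decide whether a gene differed, and its p-values are not given.

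**Figure D4:**
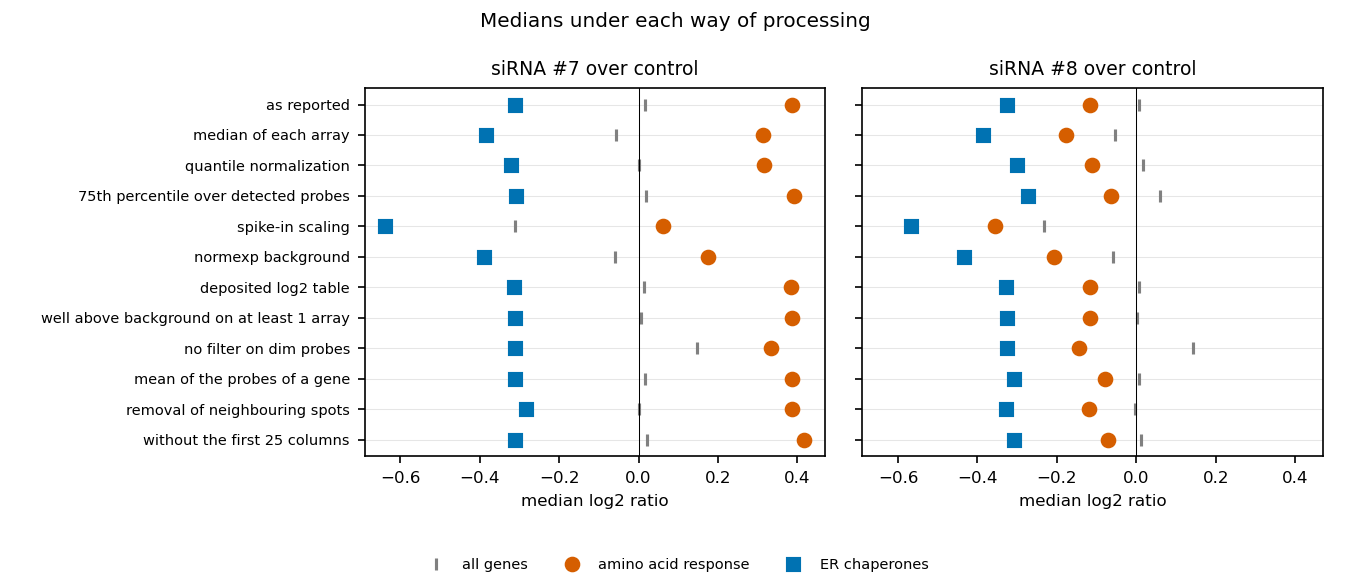
Median log2 ratio to control siRNA (x axis) of the 21 amino acid response genes (circles), the 13 ER chaperones (squares) and all genes (ticks) under each way of processing (y axis), for siRNA #7 and siRNA #8. The amino acid response median lies above that of the chaperones in every row, by 0.56 to 0.73 with siRNA #7 and 0.18 to 0.24 with siRNA #8.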

How the data were processed

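Gene expression was measured on 1 Agilent SurePrint G3 array with 1 dye per condition (control siRNA, siRNA #7 and siRNA #8). The deposited spot files hold an intensity per spot that the authors obtained with Agilent Feature Extraction 11.5.1.1. Background had been subtracted, and the arrays had not been scaled to each other. The siRNA numbers in the file names differ from those of the sample labels, and the labels were used. The authors also deposited a log2 table, whose differences between arrays matched those of log2 intensity (slope 1.00) shifted to the 75th percentile of each array, with each probe centred. It was used as an alternative.

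From the 58717 gene spots of an array, spots with outlier flags were left out and the log2 intensities of a probe were averaged. A probe passed if it reached the 20th percentile on 2 arrays or more and exceeded background on all 3 (well above it in at least 50% of its spots), 18121 of 50593 probes with a value. The accession of a probe was looked up among the RefSeq transcripts of GRCh38.p14 for its symbol, and 30000 probes were named. The brightest passing probe stood for a gene. The array design was annotated on hg19, so no gene coordinates are given from it. The spot-to-spot SD came from probes printed 10 times, pooled in 6 ranges of signal, and covers spotting and scanning only. A bound ("at least") sets the bright probe against its own value on the dim array or the dimmest detected probe of that array, whichever was higher. Genes always named are *ATF4*, *DDIT3*, *ATF3*, *XBP1*, the sensors and *HSPA5*, and further genes with 3 levels are those at least 1.5-fold from control siRNA with either siRNA, and those whose probes disagree in direction. Other pathway genes are named from 2-fold.

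The genes and lists were chosen with earlier results of these data known. Python 3.11.15, numpy 2.4.6, pandas 2.3.3, scipy 1.17.1 and limma 3.58.1 in R 4.3.3 were used, and the steps were tested on simulated data. Alternatives were the median of each array, quantile normalization, the 75th percentile over detected probes, 10 E1A spike-in probes, normexp (offset 50, on median signals because no mean signal column was in the files used), the deposited log2 table, 2 looser filters, an average over all passing probes of each gene, subtraction of the median deviation of the spots within 3 rows and columns, and limma. Leaving out probes in the first 25 columns was chosen after seeing the data. The overexpression experiment of the study was not used here.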

Additional observations from a re-analysis of the deposited data

Results flagged for a closer look

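Probes that did not enter the comparisons were searched for a signal above background with a targeting siRNA and not with control siRNA. This rule sets the direction of the values in advance, and the share of all probes that meet it is not given. The dimmer probe of *CHAC1* had such a signal with siRNA #7, at least 5.24-fold above control siRNA, its level being -3.05 on the control array, -0.66 after siRNA #7 and -3.30 after siRNA #8. Its brightest probe gave 4.02-fold on the same array. The probe of *NUPR1*, a stress-induced chromatin protein and target of ATF4, was well above background with both targeting siRNAs and not with control siRNA. It was at least 11.7-fold higher with siRNA #7 and at least 2.71-fold higher with siRNA #8, with levels of -3.16, 0.44 and -1.67. Probes above background with control siRNA and not with a targeting siRNA were outside this search. Among them, the probe of *STC2*, another target of ATF4, was at least 1.53-fold lower with siRNA #8. A dimmer probe of *CREB3L2*, from the wider ER list, was at least 1.49-fold lower with siRNA #8. Each of these values rests on 1 spot per array.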

How the results depend on the processing

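No paired analysis was possible because no condition was hybridized more than once. Scaling on the spike-in probes moved every median to control: all 38 genes to -0.26 with siRNA #7 and -0.48 with siRNA #8, the amino acid response genes to 0.061 and -0.36, and the chaperones to -0.64 and -0.57, with the chaperone median of siRNA #8 over siRNA #7 at 0.011. Normexp brought the amino acid response median with siRNA #7 to 0.18 and that of all 38 genes to -0.046, which was -0.0066 with the median of each array and -0.0086 with no filter, against 0.066 as reported. The counts past 2-fold with siRNA #7, 4 higher and none lower, became 2 higher and 2 lower with spike-in scaling, 1 higher with normexp (*CHAC1*), and 1 lower with no filter. Of all 12031 genes, 118 were 2-fold higher and 582 lower with spike-in scaling, and 63 were higher with normexp. With no filter 728 of 21612 genes were 2-fold lower. The 2 lower genes with siRNA #8 became 4 with no filter, and 1, *SLC7A1*, after removal of neighbouring spots or without the first 25 columns. With both siRNAs none of the 38 genes was 2-fold lower (19 of all 12031 genes were), against 1 (*ERN1*, not well above background) with no filter. At 1.5-fold there were 8 higher and 3 lower with siRNA #7, 6 lower with siRNA #8 and 1 lower with both (201 of all 12031 genes). No ratio past 2-fold changed sign. *HSP90B1* with siRNA #8 turned from -0.48 to 0.16 with the mean of its probes. *ATF6*, *ATF3*, *CEBPG*, *DDIT3*, *DDIT4*, *MTHFD2*, *PSPH*, *SLC7A1* and *XBP1* with siRNA #7 turned negative with spike-in scaling. The cause of these changes was not tested. The limit is the number of arrays, and the SD between spots is widest for dim probes such as those of *DDIT3* and *SEL1L*.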
